A study of Mus musculus with 2 samples.

Results

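The carbonic anhydrase genes described here are Car2, Car4, Car7, Car8, Car10, Car11, Car12 and Car14, which are 8 of the 16 mouse genes named Car and 8 of 32531 gene symbols counted in dorsal striatum RNA. They were chosen by name as a family, with the read counts of Car7 in these libraries already known to be higher in escalating tissue. The escalating group had raised its cocaine intake, the nonescalating group had not, and all these mice took cocaine by intravenous self-administration with long access. All carried the Drd1-TRAP transgene of line CP73, an EGFP-tagged Rpl10a driven by regulatory DNA of the dopamine receptor gene Drd1, on an FVB/N-Swiss Webster background bred to C57BL/6 for a minimum of 9 generations. Each group had 1 library. Each was made from the input, so it holds the RNA of all cells in the dissected tissue and not only that of the tagged cells. The number, age and sex of the animals behind each library were not given in the sources used here, and cocaine-naive tissue was not analysed here.

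Carbonic anhydrases are zinc enzymes that convert carbon dioxide and water into bicarbonate and a proton, and so set how fast pH can be buffered inside and around cells. In brain, the cytosolic enzyme Car2 is known as an oligodendrocyte protein, and the cytosolic enzyme Car7 as a neuronal one that supplies bicarbonate, an ion that leaves through GABA-A receptors. Car4, Car12 and Car14 are held in the cell membrane with the active site outside the cell. Car8, Car10 and Car11 are related proteins that have lost the enzyme activity: Car8 binds the inositol trisphosphate receptor Itpr1, and Car10 and Car11 are secreted and bind neurexins.

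Reads assigned to genes numbered 9548358 in the escalating sample and 9376097 in the nonescalating sample. With 1 library per group no difference could be checked against replicates or tested. Each ratio compares these libraries and not the conditions. Its interval is an exact 95% counting interval, which reflects counting error alone; sequenced reads are not independent molecules, so it may be narrower than it should be. Levels are in counts per 1000000 scaled reads (CPM) after TMM scaling, a scaling that centres the ratios of most genes on no difference. A gene was measured if it had at least 50 counts over both libraries, and called higher or lower where the libraries differed 1.5-fold or more with an interval that left out 1. Because this is whole tissue, fewer cells of a type and less RNA per cell cannot be told apart. Markers of cell types differed between the libraries: 12 of 12 microglia, 12 of 12 astrocyte, 9 of 12 oligodendrocyte and 11 of 12 endothelial markers were lower in escalating striatum. The neuron list had 2 of 12 genes higher and 0 lower. These counts use TMM scaling. Scaling to total reads raises every ratio, so fewer astrocyte, oligodendrocyte and endothelial markers would be called lower, and more neuron markers higher. All 12 markers of striatal projection neurons were measured, with a median log2 ratio of -0.10 (0.26 with total reads), and Drd1 stood at 278 CPM in escalating striatum and 358 CPM in nonescalating striatum.

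Of the 8 genes, 7 were measured; 1 was higher and 4 were lower in escalating striatum. Over all 12213 measured genes, 9.36% were called higher and 17.1% lower. The members' log2 ratios had a median of -1.04 and ran between -2.32 for Car8 and 2.16 for Car7, while the median over all measured genes was 0.02. Since the family was put together with the ratio of Car7 known, these counts are a description. The scaling sets the centre: scaled to total assigned reads, the median over all genes was 0.38 and that of the members -0.69. The share of all calls that were higher was 35.4% with TMM, 77.0% with total reads and 9.94% when scaled to neuron markers. Car7 stayed higher and Car2, Car8 and Car12 stayed lower under each of these scalings, whereas Car14 was not called with total reads.

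**Figure D1:**
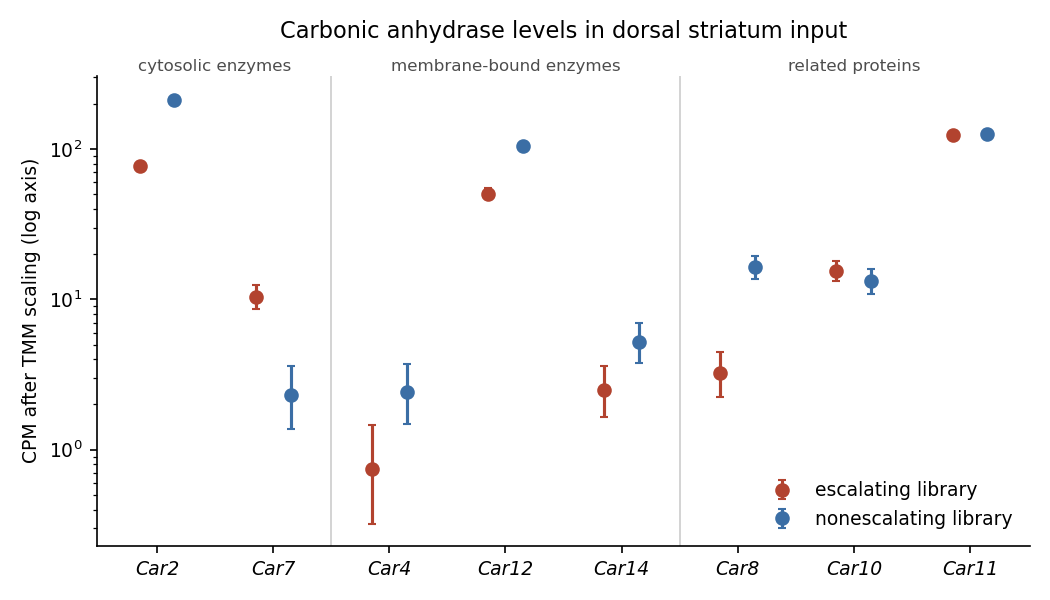
Level of each carbonic anhydrase gene in CPM after TMM scaling (log axis) in escalating striatum (red) and nonescalating striatum (blue), 1 library each; bars are exact 95% counting intervals. Car7 stood at 10.4 CPM in escalating and 2.30 CPM in nonescalating striatum and Car8 at 3.23 CPM and 16.3 CPM, while the Car11 points lie at nearly the same height.

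Car7 was the member with the largest ratio. It lies on chromosome 8 at 104534689 to 104550343, plus strand, in build GRCm38 (mm10), and GENCODE M21 lists 3 protein-coding transcripts of it with 3 different starts, each of which is also the start of a RefSeq window. The 250 bases before the 2 starts whose windows hold no annotated exon are shown because Car7 went opposite to the 4 members that were lower; the window of Car12, a gene that was lower, is shown beside them. Sequences are from RefSeq, build GRCm38.p6, plus strand, 5′ to 3′, and capitals mark the GC box, GGGCGG or its reverse complement CCGCCC.
Car7 before the middle start (chr8:104540557-104540806): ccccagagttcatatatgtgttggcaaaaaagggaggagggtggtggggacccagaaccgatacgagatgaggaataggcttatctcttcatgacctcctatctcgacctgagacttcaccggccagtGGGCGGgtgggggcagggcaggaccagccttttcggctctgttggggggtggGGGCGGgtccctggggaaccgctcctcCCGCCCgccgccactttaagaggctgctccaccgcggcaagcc
Car7 before the last start (chr8:104541059-104541308): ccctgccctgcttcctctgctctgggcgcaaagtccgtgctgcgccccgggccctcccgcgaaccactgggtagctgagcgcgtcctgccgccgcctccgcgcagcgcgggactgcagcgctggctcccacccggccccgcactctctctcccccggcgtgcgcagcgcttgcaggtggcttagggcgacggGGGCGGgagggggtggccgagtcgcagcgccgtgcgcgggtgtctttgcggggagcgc
Car12 before its RefSeq start (chr9:66713436-66713685): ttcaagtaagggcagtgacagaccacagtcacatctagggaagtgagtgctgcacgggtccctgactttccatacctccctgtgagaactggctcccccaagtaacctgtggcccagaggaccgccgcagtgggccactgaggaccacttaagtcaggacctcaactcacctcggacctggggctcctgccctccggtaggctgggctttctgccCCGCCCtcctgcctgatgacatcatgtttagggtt

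The middle Car7 window held 3 GC boxes and the last one 1, with 62.4% and 76.0% G or C and 13 and 32 CpG dinucleotides. The Car12 window held 1 GC box, 59.2% G or C and 6 CpG dinucleotides. A GC box on either strand was found in 32.7% of 32851 windows of the same length. Also searched on both strands were the hypoxia response core ACGTG, the glucocorticoid half-site AGAACA, the E-box CACGTG (which contains the reverse complement of the hypoxia core), the cAMP response half-site TGACG and the TATA box TATAAA. They occur in 16.6%, 16.1%, 6.02%, 17.8% and 12.4% of all windows, and these letters are in none of the 3 windows shown. Of the 7 other windows of members, the Car7 window before the first start held 1 cAMP response half-site, and the Car14 window 1 hypoxia core and 1 glucocorticoid half-site. A Car10 window held 1 hypoxia core that overlaps 1 cAMP response half-site, with 5 GC boxes, and the other Car10 window had 2 GC boxes. The counts do not tell which start the Car7 reads came from.

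Car7 had 113 reads in escalating striatum and 19 in nonescalating striatum, which is 10.4 CPM against 2.30 CPM. The gene was 4.55-fold higher in escalating striatum (2.78 to 7.83), a log2 ratio of 2.16. That ratio was the 14th from the top of 12213 measured genes, and 6 of the 10476 genes with at least 100 reads, Car7 included, had a ratio at least that large. By length, Car7 stood at 2.87 CPM per kb of merged exons in escalating striatum, above 35.8% of measured genes, and at 0.631 CPM per kb in nonescalating striatum, above 3.09%. Its place in the order of the family differed: only 3 of the other 7 genes were above it in escalating striatum, and all 7 in nonescalating striatum. All 12 neuron markers had a smaller ratio than Car7, and the largest was 0.80, for Uchl1, a neuronal ubiquitin hydrolase. No measured gene of any other cell type list had a larger ratio than Car7 either. As Car7 was noted beforehand for its high ratio, this is a description and says nothing about neuron content.

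Cortical markers differed between the libraries as well, in both directions. Of 7 measured cortex markers, 4 were higher and 2 lower in escalating striatum, with a median log2 ratio of 0.66. Neurod6, a transcription factor of cortical excitatory neurons, had 67 reads in escalating and 13 in nonescalating striatum (log2 ratio 1.94). Slc17a7, the vesicular glutamate transporter of cortical neurons, had 291 reads in escalating and 97 in nonescalating striatum (1.19), while the layer marker Rorb had 506 reads in escalating and 1342 in nonescalating striatum (-1.79). The summed level of the 8 listed cortex markers was 117 CPM in escalating striatum and 204 CPM in nonescalating striatum. Rorb alone made up 46.8 CPM of the escalating sum and 162 CPM of the nonescalating sum. The lower sum in escalating striatum thus follows Rorb and not the 4 markers that were higher. None of the 8 listed cortex markers was at 0 in either library. Their part in the Car7 difference was not tested. The 3 genes with at least 100 reads and a log2 ratio nearest to that of Car7 were the collagen gene Col6a4 (2.24), the hypoxia-inducible factor subunit gene Hif3a (2.04) and the processed pseudogene 3000002C10Rik (2.37). With 2 libraries this is nearness of a single ratio.

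Car2, on chromosome 3 at 14886273 to 14900770, had the most counts of the family over both libraries. It had 832 reads in escalating striatum and 1749 in nonescalating striatum, or 76.9 against 211 CPM. That is 2.75-fold lower (2.53 to 2.99) in escalating striatum, with a log2 ratio of -1.46. Per length it stood above 93.3% of measured genes in escalating striatum and above 98.3% in nonescalating striatum, so it was an abundant transcript in both. Oligodendrocyte markers were lower too: 9 of 12 with TMM scaling, at a median log2 ratio of -0.94. Their summed level was 1555 CPM in escalating striatum and 4066 CPM in nonescalating striatum. Car2 lay inside their range, with 3 of the 12 at a lower ratio, namely Bcas1, the myelin basic protein gene Mbp and Ugt8a (-2.90, -2.14 and -1.64). None of the 12 was at 0 in either library, and their part in the Car2 difference was not tested. Car2 is also known from red blood cells. The beta-globin gene Hbb-bs had 73 reads in escalating and 202 in nonescalating striatum, a log2 ratio of -1.85, and the erythroid heme enzyme gene Alas2 had 56 reads in escalating and 43 in nonescalating striatum (-0.01).

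**Figure D2:**
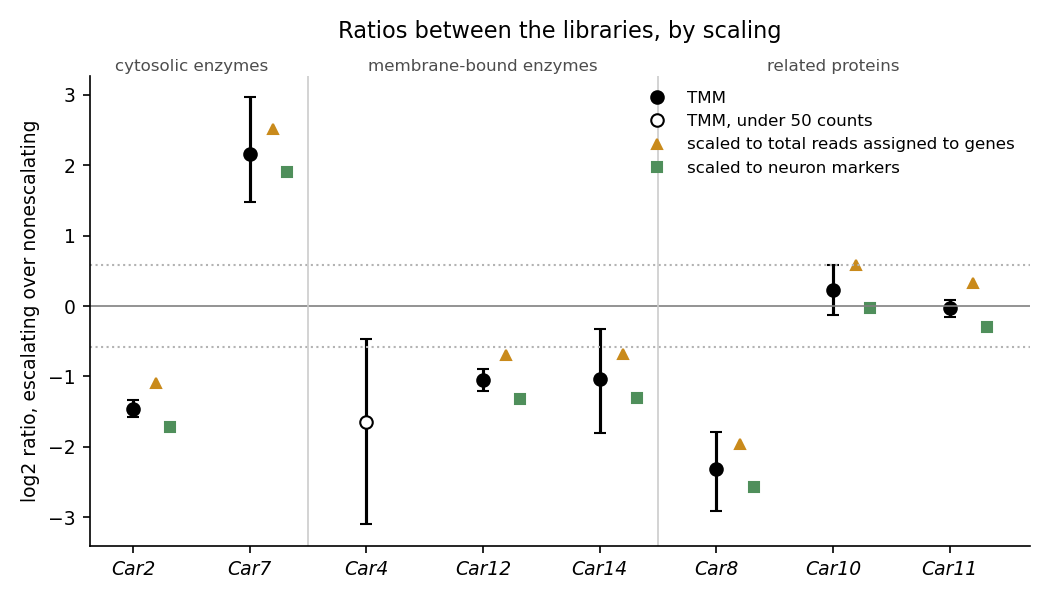
log2 ratio of escalating over nonescalating striatum for each carbonic anhydrase gene; black points with exact 95% counting intervals use TMM scaling, triangles total assigned reads and squares the summed neuron markers, and dotted lines mark 1.5-fold. Car7 lies at 2.16 and Car8 at -2.32, and only Car10 and Car11 change sign with the scaling; the open point, Car4, had too few counts to be measured.

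Among the membrane enzymes, Car12 (chromosome 9, 66713686 to 66766845), a transmembrane enzyme known as hypoxia-inducible in human tumours, carried nearly all the counts. It had 546 reads in escalating and 867 in nonescalating striatum, or 50.5 against 105 CPM, and was 2.08-fold lower (1.86 to 2.32). Its log2 ratio of -1.05 lay below those of all 12 neuron markers and above those of 10 of 12 astrocyte markers. It lay inside the range of the oligodendrocyte markers, with 5 of 12 at a lower ratio, and of the endothelial markers, with 6 of 12. With total reads the ratio was -0.69, still past 1.5-fold. Choroid plexus is another known site of Car12, and its defining transcript Ttr, the transthyretin carrier, is listed at 0 reads in both libraries, although other genes of the list had reads. Of 3 measured choroid plexus and ependymal markers 2 were higher in escalating striatum, Clic6 (log2 ratio 1.003) and the cilia regulator Foxj1 (0.78). The 12 listed ones summed to 38.2 CPM in escalating and 22.2 CPM in nonescalating striatum; 3 of them were at 0 reads in escalating and 2 in nonescalating striatum. Their part in the Car12 difference was not tested.

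Car14 (chromosome 3, 95897768 to 95904691, minus strand), a transmembrane enzyme of neurons and some glia, was near the count minimum, with 27 reads in escalating and 43 in nonescalating striatum. It was 2.08-fold lower in escalating striatum (1.26 to 3.51), at 2.50 CPM there and 5.20 CPM in nonescalating striatum. It shares 445 exon bases with Aph1a, a gamma-secretase subunit gene on the opposite strand, and no source used here gives the strand setting of the counting, so its count is uncertain. Aph1a had 26 reads in escalating and 35 in nonescalating striatum, and reads left out as falling in more than 1 gene made up 8.06% of reads in escalating and 18.9% in nonescalating striatum.

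Car4 (chromosome 11, 84957786 to 84966044), an enzyme tethered to the surface of brain capillary endothelium by a lipid anchor, had 8 reads in escalating and 20 in nonescalating striatum and was not measured. Its CPM were 0.739 in escalating and 2.42 in nonescalating striatum, and the interval of the log2 ratio, -3.10 to -0.46, is wide. Of 12 endothelial markers 11 were lower with TMM scaling, at a median of -0.94. Their summed level was 248 CPM in escalating and 439 CPM in nonescalating striatum. None was at 0, and their part in the Car4 values was not tested.

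Car8 (chromosome 4, 8143362 to 8239041, minus strand), best known from cerebellar Purkinje cells, had the lowest ratio of the family. It had 35 reads in escalating striatum and 135 in nonescalating striatum, which is 3.23 against 16.3 CPM. It was 5.04-fold lower (3.46 to 7.54) in escalating striatum, at rank 229 from the bottom of 12213 genes. All 12 neuron markers and all 12 projection neuron markers had a higher ratio. Its partner Itpr1, the calcium release channel, was also lower but by less, 1.66-fold (1.62 to 1.70), with 11889 reads in escalating and 15102 in nonescalating striatum. Itpr2, a close relative of Itpr1 found in astrocytes, had 181 reads in escalating and 354 in nonescalating striatum and a log2 ratio of -1.35. Itpr1 was not called with total reads, where 1 of these 2 genes was lower.

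Car11 and Car10, the neurexin ligands, were the members that were not called. Car11 (chromosome 7, 45699843 to 45704682) had 1338 reads in escalating and 1045 in nonescalating striatum and stood at 124 CPM in escalating and 126 CPM in nonescalating striatum. Its log2 ratio was -0.03 (-0.15 to 0.09), and 0.33 with total reads. By length it stood above 97.6% of measured genes in escalating and 97.4% in nonescalating striatum, so the most abundant member in escalating striatum was one without enzyme activity. Car10 (chromosome 11, 93098028 to 93601749) had 167 reads in escalating and 109 in nonescalating striatum, or 15.4 CPM against 13.2 CPM, with a log2 ratio of 0.23 (-0.13 to 0.59). It passed 1.5-fold with total reads, at 0.59. The neurexin genes Nrxn2 and Nrxn3 stood at log2 ratios of -0.42 and -0.19 and were not called.

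Shares of the family's own counts do not depend on the scaling of the libraries. The 8 genes together had 3066 reads in escalating striatum and 3987 in nonescalating striatum, and their summed level was 283 against 482 CPM. Car2 made up 27.1% of these counts in escalating striatum (25.6 to 28.7) and 43.9% in nonescalating striatum (42.3 to 45.4). Car11 made up 43.6% in escalating (41.9 to 45.4) and 26.2% in nonescalating striatum (24.9 to 27.6). In escalating striatum Car12 held 17.8%, Car7 3.69% and Car8 1.14%, and in nonescalating striatum Car12 held 21.7%, Car7 0.477% and Car8 3.39%. The leading gene was thus Car11 in escalating and Car2 in nonescalating striatum. The same held per length, where Car11 stood at 64.2 and Car2 at 31.7 CPM per kb in escalating striatum, against 65.6 and 87.3 CPM per kb in nonescalating striatum. Unlike the shares, summed levels in CPM depend on the scaling. Without Car2, the other 7 genes had 2234 reads in escalating and 2238 in nonescalating striatum. With TMM scaling that is 206 CPM against 270.5 CPM, 1.31-fold lower in escalating striatum (1.24 to 1.39). Total assigned reads were also close, at 9548358 in escalating and 9376097 in nonescalating striatum, so this fold comes mainly from the TMM factors. The fold is also below the threshold used to call a gene lower.

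**Figure D3:**
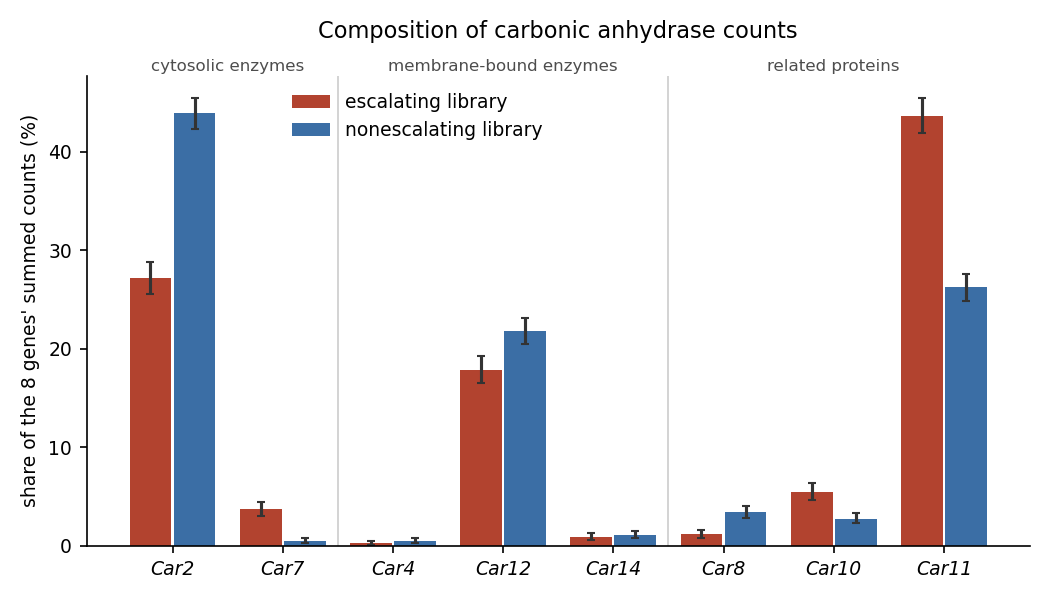
Share of the summed counts of the 8 carbonic anhydrase genes held by each gene (percent, bars start at 0) in escalating striatum (red) and nonescalating striatum (blue); error bars are exact 95% binomial intervals. Car11 leads in escalating striatum with 43.6% and Car2 in nonescalating striatum with 43.9%.

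Pairs of members were compared by the ratio of their ratios, which is also free of the scaling. Of 28 pairs, 21 had an exact 95% interval that excluded 1 and 7 did not. The interval of Car7 excluded 1 against every other member, as a description of a gene whose ratio was known beforehand. Its ratio was 22.6 times that of Car8 (11.98 to 44.6), 4.64 times that of Car11 (2.82 to 8.05) and 3.87 times that of Car10 (2.21 to 7.07). The ratio of Car2 was 0.755 times that of Car12 (0.658 to 0.867) and 1.83 times that of Car8 (1.24 to 2.77). The 2 neurexin ligands could not be told apart, as the ratio of Car10 was 1.20 times that of Car11 (0.921 to 1.56). Nor could Car12 and Car14, at 1.003 (0.598 to 1.71), and 6 of the 7 pairs that held 1 included Car4, with its 28 reads, or Car14.

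Below the leading genes, the order of levels per length rests on few counts. In escalating striatum Car12 came after Car11 and Car2 at 6.64 CPM per kb, then Car7 (2.87), Car10 (2.43), Car14 (0.981), Car8 (0.839) and Car4 (0.376). In nonescalating striatum Car12 came after the same genes at 13.8 CPM per kb, then Car8 (4.23), Car10 (2.07), Car14 (2.04), Car4 (1.23) and Car7 (0.631). Intervals of neighbours overlapped for Car7 and Car10, Car14 and Car8, and Car8 and Car4 in escalating striatum. They overlapped for Car10 and Car14, Car14 and Car4, and Car4 and Car7 in nonescalating striatum. The order in each library was the same when the longest transcript gave the length.

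**Figure D4:**
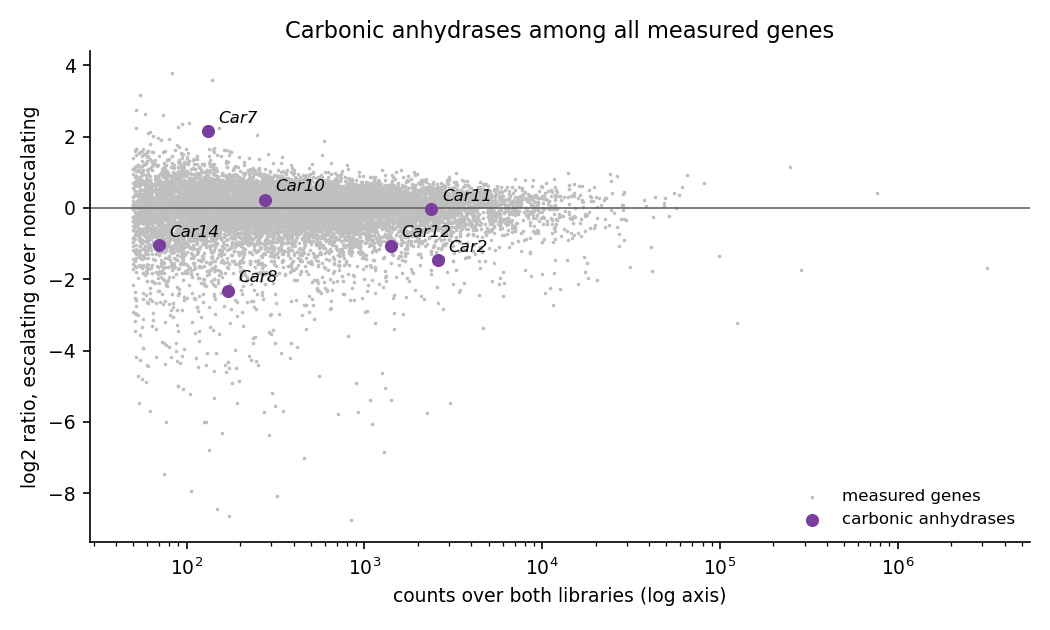
log2 ratio of escalating over nonescalating striatum (TMM scaling) against the counts over both libraries (log axis) for 12213 measured genes (grey) and the 7 measured carbonic anhydrases (purple). Car7 stands at the upper edge of the cloud at 2.16, Car8 in its lower part at -2.32, and Car11 on the zero line.

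The other 8 Car genes were scarcely present. Car5b, a mitochondrial enzyme, had 28 reads in escalating and 34 in nonescalating striatum and Car15, a lipid-anchored enzyme, had 25 reads in escalating and 30 in nonescalating striatum; both were measured and neither was called, with log2 ratios of -0.66 and -0.64. Car15 shares 1253 exon bases with Gm20518, which has the same orientation, and its count is uncertain. Car9, the hypoxia-induced enzyme, had 16 reads in escalating and 10 in nonescalating striatum, and Car3 had 7 in escalating and 2 in nonescalating striatum. Car1, the red cell enzyme, had 2 reads in escalating and 0 in nonescalating striatum, and Car13 had 0 in escalating and 1 in nonescalating striatum. Car5a and Car6, enzymes of liver mitochondria and of saliva, had 0 reads in both libraries, where a count of 0 allows up to 0.277 CPM in escalating and 0.363 CPM in nonescalating striatum. The receptor phosphatases Ptprz1 and Ptprg, which carry a carbonic anhydrase-like domain outside the cell, were both lower. Ptprz1, a glial gene, had 1414 reads in escalating and 4666 in nonescalating striatum and was 4.32-fold lower (4.07 to 4.58). Ptprg had 504 reads in escalating and 724 in nonescalating striatum and was 1.88-fold lower (1.67 to 2.11); with total reads Ptprg was not called. Of 8 markers of oligodendrocyte precursors, which also use Ptprz1, 3 were lower and 1 higher (median -0.45), and their part and that of the astrocyte markers were not tested.

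Lists of transporters that work beside carbonic anhydrases, and other lists, follow. Over all measured genes 9.36% were called higher and 17.1% lower. In lists this short, 1 gene called is near those shares. Of 7 measured bicarbonate transporters 1 was higher and 1 lower, with a median log2 ratio of -0.41 (-0.05 with total reads). Slc4a11 was the higher one, with 101 reads in escalating and 32 in nonescalating striatum and a 2.41-fold ratio (1.61 to 3.71). Slc4a4, the sodium bicarbonate cotransporter of astrocytes, was the lower one, with 3380 reads in escalating and 4770 in nonescalating striatum, 1.85-fold (1.77 to 1.93), and it was not called with total reads. Slc4a8 and Slc4a7 had log2 ratios of -0.53 and -0.44. Astrocyte markers, a list that includes Slc4a4, had a median log2 ratio of -1.83 and a summed level of 2206 CPM in escalating and 15370 CPM in nonescalating striatum. None was at 0, and their part in these transporter differences was not tested.

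Of 10 measured proton exchangers and their regulators 4 were lower and 0 higher (median -0.36). The endosomal exchanger Slc9a9 had a log2 ratio of -1.55, the scaffold Slc9a3r1 -1.51 and Slc9a2 -0.75; with total reads 2 genes of this list were lower. Of 5 monocarboxylate transport genes, which move lactate together with a proton, 4 were lower (median -0.73), and 1 was with total reads. They were Slc16a1 (-1.15), Slc16a7 (-0.93), and the chaperones Bsg (-0.73) and Nptn (-0.61).

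Car7 is known to act where chloride gradients and GABA-A receptors meet. Of 15 genes of chloride cotransport and GABA-A receptors, 4 were lower and 0 higher, with a median of -0.43 (-0.07 with total reads, where 0 were lower and 1 higher). Among the lower ones were the chloride importer Slc12a2 (-0.87), the receptor subunit Gabra2 (-0.80) and the kinase Wnk1 (-0.71). The neuronal chloride exporter Slc12a5, which encodes KCC2, had 4984 reads in escalating and 3976 in nonescalating striatum and a log2 ratio of -0.06. Of 8 proton sensors 1 was lower (median -0.32, or 0.04 with total reads), the potassium channel gene Kcnk1 at -0.97; the channel gene Kcnk9 stood at 0.51, and Kcnk2 at -0.42. Of 10 hypoxia targets 1 was lower, Ndrg1 at -0.68, with a median of -0.03 (0.33 with total reads). P4ha1, the glucose transporter gene Slc2a1 and the growth factor gene Vegfa stood at -0.53, -0.52 and -0.45. Others lay above 0, among them Ankrd37, Ldha and Pgk1 at 0.40, 0.33 and 0.29, and were not called with TMM. With total reads Ldha and Pgk1 would be called higher, and Ndrg1 would not be called.

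**Figure D5:**
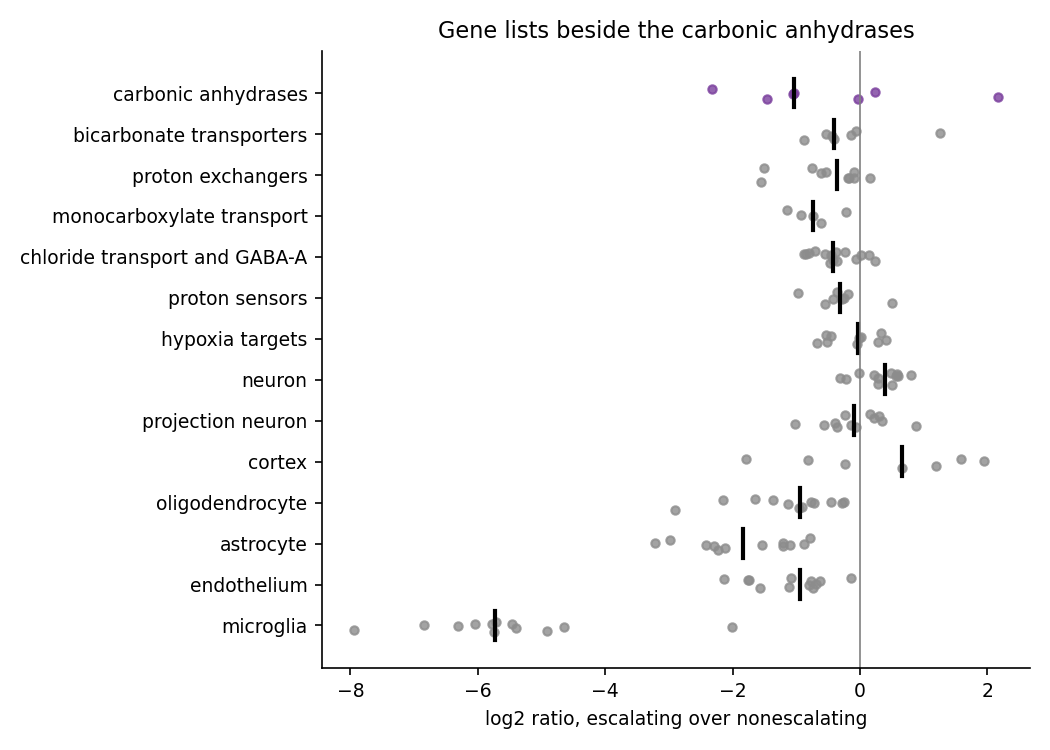
log2 ratio of escalating over nonescalating striatum (TMM scaling) for measured genes of the carbonic anhydrases (purple) and of other lists (grey points, 1 per gene); black bars are list medians and the vertical position within a row is arbitrary. The carbonic anhydrases run between -2.32 and 2.16, the transporter and proton sensor lists have medians between -0.73 and -0.32, and the microglia list has a median of -5.72, or -5.62 with Trem2, at 0 reads in escalating striatum, placed at 3 reads.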

How the data were processed

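Input RNA of dorsal striatum was sequenced as 1 library per group, per the labels. Alignment used STAR 2.0.0e and mm10, and the authors deposited raw HTSeq counts per gene symbol, per the submitters' processing notes. No annotation, HTSeq version or strand setting is given in the sources used here. Reads given to no gene were left out: 53.8% of listed reads in escalating and 55.3% in nonescalating striatum were assigned to genes. The libraries differed in reads that matched no annotated feature, which were 28.6% in escalating and 18.1% in nonescalating striatum. The RNA Rn45s held 5.15% of assigned reads in escalating and 2.97% in nonescalating striatum. The RNA AK140265 held 9.66% of assigned reads in escalating and 24.1% in nonescalating striatum, so sizes were scaled by TMM factors (1.13 for escalating and 0.882 for nonescalating striatum; edgeR 4.0.16, R 4.3.3).

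The log2 ratio used a pseudocount of 0.5, and folds are ratios of CPM without it. Intervals are exact Clopper-Pearson. No test was run, since there is 1 library per group. Lengths and coordinates came from GENCODE M21 (GRCm38), which gave a length for 92.5% of measured genes. Promoter windows were matched by symbol for 6 of 8 members. The script was tested on simulated data. Python 3.11.15, numpy 2.4.6, pandas 2.3.3 and scipy 1.17.1 were used.

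The members and gene lists were chosen with earlier results of these data known. The genes named are all members, the other Car genes, the 4 measured genes per other list whose ratios were furthest from 0 (a selection is printed for cell types, and some genes are not reported here), and the 3 nearest to Car7; Aph1a, Gm20518, Ttr, Slc12a5 and Drd1 were named outside this rule, after their values were seen. The alternatives scaled by DESeq2 1.42.0 size factors, by summed neuron markers, by total reads or by TMM without AK140265 and Rn45s, or changed count minimums, pseudocount, thresholds and lengths.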

Additional observations from a re-analysis of the deposited data

How the results depend on the processing

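With total-read scaling 2 members were higher, against 1 with TMM, the added one being Car10, and Car14 was no longer called. Over all measured genes, 3853 were higher and 1148 lower with total reads, 372 and 3371 when scaled to neuron markers, and 249 and 1085 at a 2-fold threshold, against 1143 and 2085. No measured member that was called changed direction under any alternative run. DESeq2 size factors and TMM without AK140265 and Rn45s changed no call of a member and left every count of calls within 1.5 times its value. No paired analysis was possible because each group has 1 library, and no library could be left out. Depth limits Car4, Car8, Car14 and Car7, which had 28, 170, 70 and 132 counts over both libraries.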

Other observations

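A few genes of the same pathways fell under the minimum of 50 counts; they were singled out with their values known. The chloride cotransporter gene Slc12a7 had 8 reads in escalating striatum and 39 in nonescalating striatum, a log2 ratio of -2.59, with an interval of 2.94 to 15.8 for the fold by which it was lower. Egln3, an oxygen-sensing prolyl hydroxylase induced by hypoxia, had 29 reads in escalating and 7 in nonescalating striatum, a 3.17-fold higher level (1.36 to 8.57). Both intervals cover counting error only.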
